A study of Saccharomyces cerevisiae with 18 samples.

Results

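The genes described here are the cytosolic translation factors of Saccharomyces cerevisiae: 36 genes that encode the factors for initiation, elongation and release, of 6218 genes on both array layouts. They were chosen by name and function, by a rule that uses no measured value, with earlier results of these data known. All 36 were found among the gene identifiers of the scanner files. They are 4 genes for eIF1, eIF1A, eIF5 and eIF5B, 3 for eIF2, 5 for eIF2B, 6 for eIF3, 6 for eIF4 factors, 5 for eEF1, 3 for eEF2 and eEF3, 2 for eIF5A and 2 for the release factors.

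Spores of the Y55 strain background, with the genotype given as HO gal3 MALI SUCI, were transferred to the rich medium YPD (peptone, glucose and an extract of yeast) or to 2% glucose alone. RNA was taken at 9 times in each medium, the start, the early times of 4, 8 and 16 min, the middle times of 32, 48 and 64 min and the late times of 96 and 128 min, labelled with Cy5 and hybridised on spotted 2-colour arrays against Cy3-labelled RNA of dormant spores. There were 27 arrays for YPD and 26 for glucose, 3 for each medium and time except glucose 0 min with 2. All values below are log2 ratios of a time point over dormant spores, so a value of 1 is a 2-fold higher share of the RNA than in the dormant spore, and a change is the difference of such ratios between groups. Because equal amounts of total RNA were labelled, a change in the number of spores that had left dormancy and a change of RNA per cell cannot be told apart. The methods state biological replicates and the labels also mention repeat scans, without saying which array is which, so p-values measure only the spread between arrays.

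Translation begins when eIF2 carries the initiator tRNA to the small ribosomal subunit, joined by eIF1, eIF1A, eIF3 and eIF5, while the eIF4 factors bring the capped mRNA. eIF2B reloads eIF2 with GTP, eIF5B joins the subunits, and eEF1A, eEF2 and the fungal factor eEF3 then drive elongation until eRF1 and eRF3 release the finished protein. A dormant spore makes little protein, and protein synthesis is among the processes that resume when nutrients return.

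Of the 36 genes, 29 had a value in all 18 groups and entered the test. The 7 others, PRT1, TEF1, TEF2, EFT1, EFT2, YEF3 and ANB1, lost too many spots to the quality flags of the scanner software. In these 7, 54% of 742 spots were flagged poor, against 15.6% of 3074 spots in the 29 and 13.7% of all spots, and the most frequent reason was background contamination (284 of 401 flagged spots). They were fitted separately with no spot left out and are described under their own factors. Genes were called changed at an adjusted p under 0.05 in limma, with Benjamini-Hochberg adjustment over all 5826 genes tested.

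Replicate arrays correlated across all genes between 0.638 and 0.943 in YPD, but only at 0.232 in glucose at 0 min and between 0.061 and 0.362 in glucose at 4 min. The early glucose arrays were thus less alike across genes. The fit pools the spread over all groups, so its SEs do not reflect this: that of SUI3 against 0 min in glucose was 0.22 at both 4 and 32 min. The median spot was 1.74 to 3.49 times its local background in Cy5 in YPD and 1.66 to 3.77 times in glucose. All 3 YPD arrays of 32 min were quantified on a day of their own, and those of 4 and 16 min on 1 day that held no other group. Time and quantification day therefore cannot be told apart in the changes from 0 to 4, 16 and 32 min in YPD. The YPD arrays of 48, 64, 96 and 128 min shared no day with those of 0 min either and were linked to them only through glucose arrays. Among the YPD times only 8 min shared a day with 0 min. Of the defining spore genes, SPS100 stood at -4.07 at 32 min and at -6.20 at 128 min in YPD, and the median of all 13 spore genes listed was 0.07 and -0.21 at those times. The median of the 5 tested of 6 listed genes of mating haploid cells was 1.38 at 128 min in YPD, against 0.07 at 0 min, and 0.56 at 128 min in glucose, and the part of spore or mating cells in the late values of the factors was not tested.

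In YPD, 20 of the 29 factors rose above 0 min at 1 or more times, 6 fell, 2 of them did both, and 5 never changed by the test. The share of all genes called at 1 or more times was not computed, so these pooled counts cannot be set against all genes. The shares that follow are for single times. Already at 4 min 6 rose and 1 fell, where 7.74% of all genes were called up and 6.14% down. At 8 min 10 rose and 1 fell (10.8% and 5.34% of all genes), and at 32 min 15 rose and 2 fell (22.2% and 26.6% of all genes). At the times between, 12 rose and 3 fell at 16 min (22.7% and 25.9% of all genes), 9 and 3 at 48 min (19.4% and 26.3%), 13 and 4 at 64 min (22.8% and 28.4%), and 8 and 5 at 96 min (20.2% and 25.9%). At 128 min 10 rose and 4 fell (18.4% and 25.7%). TIF11, TIF5, SUI3, GCD1, NIP1 and HCR1 were among the rises at each time from 16 to 128 min. With the quantification day as a fixed block, only 16 of the 29 had enough values to be fitted, and the change at 32 min could not be fitted. Of the 10 rises at 8 min 5 were among the 16 and all 5 remained called (TIF5, GCD1, NIP1, EFB1 and HYP2), as did the fall of GCD6. At 128 min 7 of the 10 rises and 3 of the 4 falls were among the 16, and 0 of these remained called. Of the fitted rises 0 of 6 remained called at 48 min, 3 of 6 at 64 min (TIF5, GCD1 and HCR1) and 1 of 4 at 96 min (GCD1). Of the fitted falls 1 of 3 remained called at 48 min, 1 of 3 at 64 min and 1 of 4 at 96 min, RPG1 each time. TIF11 and SUI3 could not be fitted at these times. With the day as a random block 9 rose at 32 min and 6 at 128 min. The 29 had a median change of 0.47 after 8 min (all genes -0.05), of 0.72 after 32 min (all genes -0.04) and of 0.43 after 128 min (all genes -0.04). The rises and falls differed in how far they depended on the scaling of the arrays. Of 131 rises against 0 min called over all times and both media, 103 were also called with loess fitted per print tip and 124 with median centring, and 1 turned its sign under either (HYP2 at 8 min in YPD, print-tip loess). Of 27 falls, 8 turned their sign with print-tip loess and 11 with median centring. The falls that kept their sign under both were all 9 of GCD6, that of CAM1 and 1 of the 5 of FUN12.

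**Figure D1:**
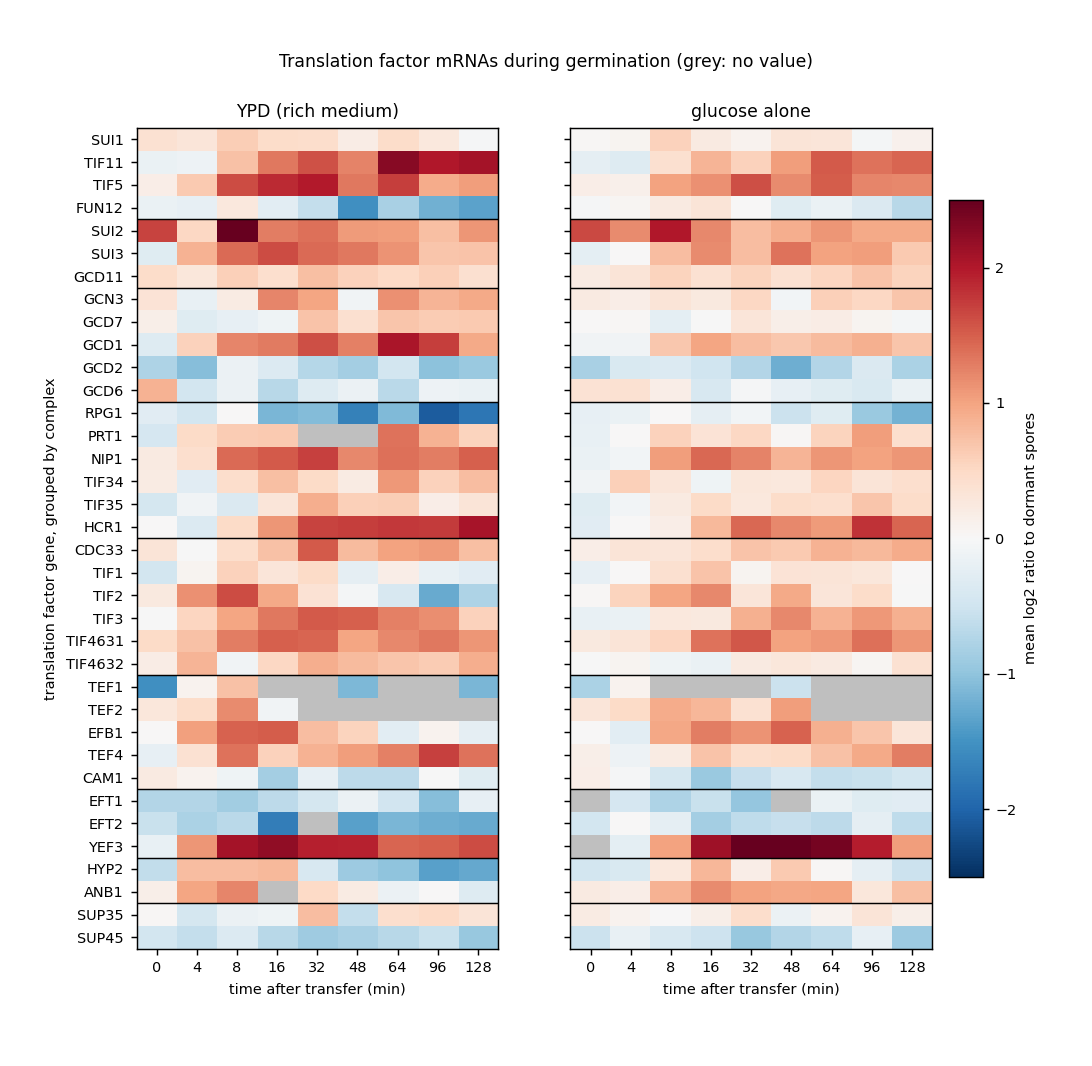
Mean log2 ratio to dormant spores of the 36 translation factor genes at 9 times after transfer to YPD (left) and to 2% glucose (right), grouped by factor, with grey cells where no array gave a value. Most initiation factor genes are at or above 0 by 32 min, where the median of the changes of the 29 genes in the test is 0.72 in YPD and 0.29 in glucose, and the blue cells of RPG1, FUN12, TIF2 and HYP2 at late YPD times belong to genes whose falls turned sign under print-tip loess or median centring.

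Among the factors of start-site selection, TIF11 and TIF5 rose and SUI1 did not change. TIF11 encodes eIF1A, which binds the decoding site of the small subunit. Its log2 ratios in YPD were -0.20, -0.10 and -0.20 at 0 min, 0.08, 0.98 and 1.17 at 8 min, 0.998, 1.75 and 2.04 at 32 min, and 1.53, 2.26 and 2.43 at 128 min. The arrays of 32 and 128 min all lay above those of 0 min, with a change of 1.77 (SE 0.35, adjusted p = 6.24e-05) at 32 min and of 2.24 (SE 0.35, adjusted p = 1.78e-06) at 128 min and a first call at 16 min. At 0 min the Cy5 signal of TIF11 was above background on 1 of 3 YPD arrays and 1 of 2 glucose arrays, so its 0 min values lie near the detection limit. In glucose TIF11 stood at -0.12 and -0.34 at 0 min, at 0.55, 0.36 and 0.80 at 32 min and at 1.51, 2.02 and 0.84 at 128 min. It was called only from 48 min in glucose, with a change of 1.69 (SE 0.39, adjusted p = 0.00132) at 128 min.

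TIF5 encodes eIF5, which activates the GTPase of eIF2. It rose early in YPD, to 1.26, 1.91 and 1.74 at 8 min, against 0.01, 0.24 and 0.26 at 0 min, with no overlap and a change of 1.46 (SE 0.27, adjusted p = 0.000107). At 32 min it stood at 1.60 and 2.36 on the 2 arrays with a value, and at 128 min at 0.70, 1.14 and 1.29. The change between 32 and 128 min was -0.93 (SE 0.30, adjusted p = 0.0197), a call that was lost without replicate 2 of 32 min or replicate 1 of 128 min. In glucose TIF5 had 1.16, 2.26 and 1.42 at 32 min, against 0.05 and 0.27 at 0 min, a change of 1.45 (SE 0.30, adjusted p = 0.000766). The YPD and glucose values of 32 min overlapped.

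SUI1, which encodes eIF1, had 0.28, 0.53 and 0.52 at 32 min, against -0.04, 0.56 and 0.62 at 0 min in YPD, and its change of 0.06 (SE 0.23) was not called at any time in either medium. FUN12 encodes eIF5B, the GTPase of subunit joining, and its probe is among the brightest, at the 99th percentile of mean spot brightness. In YPD it had -1.41, -1.13 and -1.46 at 128 min, against -0.02, -0.36 and -0.14 at 0 min, a change of -1.16 (SE 0.19, adjusted p = 2.82e-06) that remained with print-tip loess (-1.04) but was 0.25 with median centring. Its direction at late times therefore depended on the scaling.

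Of the 3 eIF2 subunits, which together carry the initiator tRNA, only SUI3 was called. SUI3 encodes the beta subunit and was called up at all 8 YPD times, as was GCD1. It had -0.39, -0.27 and -0.26 at 0 min, 0.62, 0.98 and 1.01 at 4 min, 1.35, 1.63 and 1.25 at 8 min, 1.11, 1.38 and 1.76 at 32 min and 0.61, 0.62 and 0.90 at 128 min in YPD. Every array from 4 min on lay above the 0 min arrays, and the change was 1.18 (SE 0.20, adjusted p = 5.63e-05) at 4 min and 1.72 (SE 0.20, adjusted p = 4.41e-09) at 32 min. In glucose the 4 min arrays stood at 0.15, 0.06 and -0.18, all below those of YPD, and the difference of YPD minus glucose at 4 min was 0.86 (SE 0.20, adjusted p = 0.00392). SUI3 was the first member called in glucose together with EFB1, at 8 min (change 1.02, SE 0.24, adjusted p = 0.0116), where 2 members rose and 0 fell beside 2.4% and 0.463% of all genes.

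GCD11, the gamma subunit that binds GTP, had 0.47, 0.74 and 1.07 at 32 min, against 0.50, 0.50 and 0.38 at 0 min in YPD, overlapping values with a change of 0.30 (SE 0.20, adjusted p = 0.227). SUI2 encodes the alpha subunit, the target of the Gcn2 kinase, and its values were dominated by a few arrays. It stood at 3.67 on replicate 2 of YPD 0 min, at 4.87 on replicate 3 of YPD 8 min, and at 3.32, 3.01 and 4.62 on 1 array each of glucose 0, 4 and 8 min, while the other arrays of those groups lay between -0.02 and 1.97. With this spread its change of -0.31 at 32 min in YPD had an SE of 0.76, so a change of the size seen in SUI3 was not detectable.

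**Figure D2:**
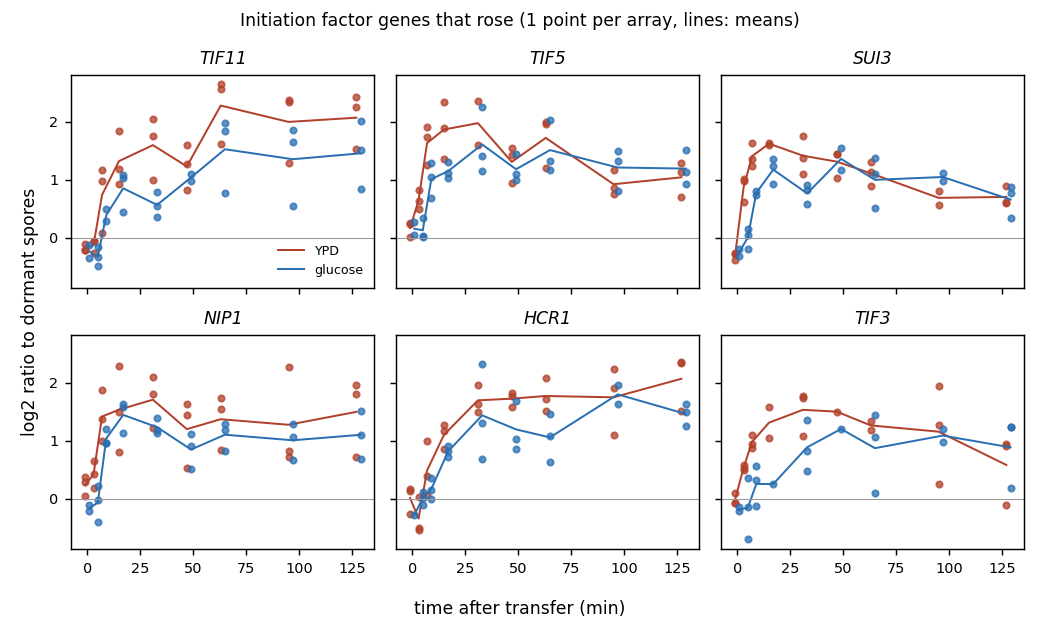
Log2 ratio to dormant spores of 6 initiation factor genes against time after transfer in min, 1 point per array and lines through the group means, YPD in red and glucose in blue. All YPD points of 32 min lie above all YPD points of 0 min in each panel, and the glucose points of TIF11, SUI3 and TIF5 at 4 min lie between -0.48 and 0.35.

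The 5 subunits of eIF2B moved in different directions. GCD1 encodes the gamma subunit, which with GCD6 forms the catalytic pair. In YPD it had -0.17, -0.43 and -0.38 at 0 min, 0.35, 0.63 and 0.75 at 4 min, 1.24, 1.23 and 1.18 at 8 min, 1.27, 1.82 and 1.75 at 32 min and 0.57, 0.97 and 1.30 at 128 min. Its change was 1.54 (SE 0.21, adjusted p = 1.34e-06) at 8 min, 1.94 (SE 0.21, adjusted p = 1.65e-09) at 32 min and 2.37 (SE 0.21, adjusted p = 1.01e-11) at 64 min. The Cy5 signal of GCD1 was not well above background on any of the 3 arrays of YPD 0 min, so its Cy5 level there is only an upper limit. Against that limit the mean normalized Cy5 signal was 2.4-fold higher at 8 min and 4.89-fold higher at 32 min. These folds compare different arrays without the dormant-spore channel, and the log2 value at 32 min, 2.29, exceeds the change of 1.94. They are therefore not lower bounds of the changes given above. Dyes were not swapped. In glucose GCD1 had 0.66, 0.74 and 0.91 at 32 min, below all 3 YPD arrays, and the difference of YPD minus glucose was 0.84 (SE 0.21, adjusted p = 0.00375).

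GCD6 encodes the epsilon subunit, which holds the exchange activity, and was lower than at 0 min at every later YPD time. It had 0.73, 1.09 and 0.77 at 0 min, -0.75, -0.14 and -0.51 at 4 min, -0.65, -0.21 and -0.11 at 32 min and -0.14, -0.08 and -0.27 at 128 min. No later array of these reached the 0 min arrays, and the change was -1.33 (SE 0.25, adjusted p = 0.000203) at 4 min and -1.19 (SE 0.25, adjusted p = 0.000135) at 32 min. The 0 min arrays stood above the dormant spores. The Cy3 signal of GCD6, that of the dormant spores, was above background on 0 of 3 arrays at YPD 0 min, and its Cy5 signal on 0 of 3 at 4 min. In mean normalized Cy5 signals, with the detection limit in place of undetected ones, GCD6 was 1.67-fold lower at 4 min than at 0 min. This compares arrays of different quantification days and is not a lower bound of the change. The call was lost with plain background subtraction at 4, 8 and 128 min (changes of -1.67, -1.24 and -1.29), and set against dormant spores in place of 0 min, GCD6 was not called down at 8, 32 or 128 min (mean ratios of -0.15, -0.32 and -0.17).

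GCD7, the beta subunit, had 0.52, 0.61 and 1.03 at 32 min, against 0.23, -0.002 and 0.21 at 0 min in YPD, a change of 0.57 (SE 0.21, adjusted p = 0.0207) that was not called with print-tip loess or median centring, nor without replicate 2 of 0 min or replicate 3 of 32 min. GCN3, the alpha subunit, rose only at 16 and 64 min, with a change of 0.80 (SE 0.34, adjusted p = 0.0445) at 64 min. GCD2, the delta subunit, was not called at any time and had -0.64, -0.98 and -0.53 at 32 min, against -0.32, -0.85 and -1.14 at 0 min.

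In eIF3, the scaffold of the preinitiation complex, 3 of the 5 subunits in the test rose in YPD at 32 min and 1 fell. NIP1 encodes the c subunit, which contacts eIF1 and eIF5. It had 1.21, 1.81 and 2.10 at 32 min, against 0.28, 0.37 and 0.05 at 0 min, a change of 1.47 (SE 0.34, adjusted p = 0.000422). HCR1 encodes the j subunit and had -0.26, 0.14 and 0.16 at 0 min, 0.07, 0.39 and 1.0 at 8 min, 1.64, 1.49 and 1.95 at 32 min and 1.51, 2.36 and 2.33 at 128 min. Its arrays of 8 min overlapped those of 0 min, those of 32 and 128 min did not, and the change was 1.68 (SE 0.29, adjusted p = 9.09e-06) at 32 min. HCR1 and TIF4632 were the members whose group mean was highest at 128 min in YPD.

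TIF35, the g subunit, had 0.47, 0.98 and 1.27 at 32 min, against -0.31, -0.67 and -0.37 at 0 min in YPD, a change of 1.35 (SE 0.27, adjusted p = 4.99e-05), and in glucose 0.46, -0.33 and 0.64 at 32 min, not called. Its partner TIF34, the i subunit, was called only at 64 min in YPD, with a change of 0.88 (SE 0.27, adjusted p = 0.00659). PRT1, the b subunit and the core of the complex, was among the genes fitted with no spot left out. It had 0.92, 0.67 and 1.503 at 32 min, against -0.26, -0.34 and -0.64 at 0 min in YPD, and its change of 1.45 was called with each of these arrays left out, as well as with print-tip loess (1.48) and median centring (1.84). On the YPD arrays of 0 min its Cy5 signal was above background on 1 of 3 and its dormant-spore signal on 2 of 3.

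RPG1 encodes the a subunit, the largest of eIF3, and is a member whose direction depended on the scaling. With global loess it had -1.24, -1.12 and -0.89 at 32 min, against -0.29, -0.29 and -0.27 at 0 min in YPD, a change of -0.80 (SE 0.18, adjusted p = 0.000259). With print-tip loess the same change was 0.63, called as a rise, and with median centring it was 0.10. At 128 min it was -1.53 with global loess, 0.49 with print-tip loess and -0.06 with median centring, so no direction can be given for RPG1.

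All 6 eIF4 genes, whose products find the cap and unwind the leader of the mRNA, stood higher at 32 min than at 0 min in YPD, and 5 of them were called. CDC33 encodes eIF4E, the protein that binds the cap. It had 1.61, 1.69 and 1.33 at 32 min, against 0.34, 0.21 and 0.41 at 0 min in YPD, a change of 1.22 (SE 0.27, adjusted p = 0.000272), and 0.55 and 0.88 on the 2 glucose arrays of 32 min with a value. The YPD call was lost with scaling between arrays. The dormant-spore signal of CDC33 was above background on 1 of 3 YPD arrays of 32 min, against 3 of 3 at 0 min. Its mean normalized log2 Cy5 signal was 8.985 at 0 min and 9.282 at 32 min, on arrays of different quantification days. TIF3, which encodes eIF4B, a helper of the helicase eIF4A, had 1.08, 1.74 and 1.77 at 32 min, against 0.09, -0.07 and -0.08 at 0 min, a change of 1.55 (SE 0.35, adjusted p = 0.000432). Neither gene overlapped between the 2 times.

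The scaffold eIF4G is encoded by TIF4631 and TIF4632. At 32 min in YPD TIF4631 had 0.70, 1.65 and 2.04, against 0.32, 0.67 and 0.42 at 0 min, a change of 0.99 (SE 0.38, adjusted p = 0.0298) that was lost without replicate 2 or 3 of 32 min and without replicate 1 or 3 of 0 min. TIF4632 had 1.11, 0.93 and 0.69 at 32 min, against 0.26, 0.19 and 0.12 at 0 min, a change of 0.72 (SE 0.23, adjusted p = 0.00887). The pair parted at 8 min, where TIF4631 stood at 1.15, 1.39 and 1.29 and TIF4632 at -0.09, -0.24 and 0.09, though neither was called at that time. In glucose at 32 min TIF4631 was called up, with 1.59, 2.01 and 1.06, and TIF4632 had 0.42 and 0.02 on 2 arrays.

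TIF1 and TIF2 both encode eIF4A, the helicase that unwinds leaders, and their near-identical sequences can cross-hybridise, so their values are not separate measurements. TIF2 had 0.33, 0.15 and 0.26 at 0 min, 1.07, 1.18 and 1.18 at 4 min, 1.71, 1.54 and 1.62 at 8 min, and -0.26, 0.64 and 0.72 at 32 min in YPD. Its rise at 8 min was 1.38 (SE 0.26, adjusted p = 0.000431) and was called under all alternatives run, while at 32 min the change of 0.12 (SE 0.26) was not called. TIF1 had -0.55 and -0.36 on the 2 arrays of 0 min with a value, 0.86, 0.44 and 0.42 at 8 min and 0.20, 0.48 and 0.77 at 32 min. The late values of TIF2, -1.25, -0.73 and -0.36 at 128 min in YPD, gave a fall of -1.02 (SE 0.26, adjusted p = 0.00235) that was 0.66 with print-tip loess and 1.18 with median centring, and thus had no settled direction.

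**Figure D3:**
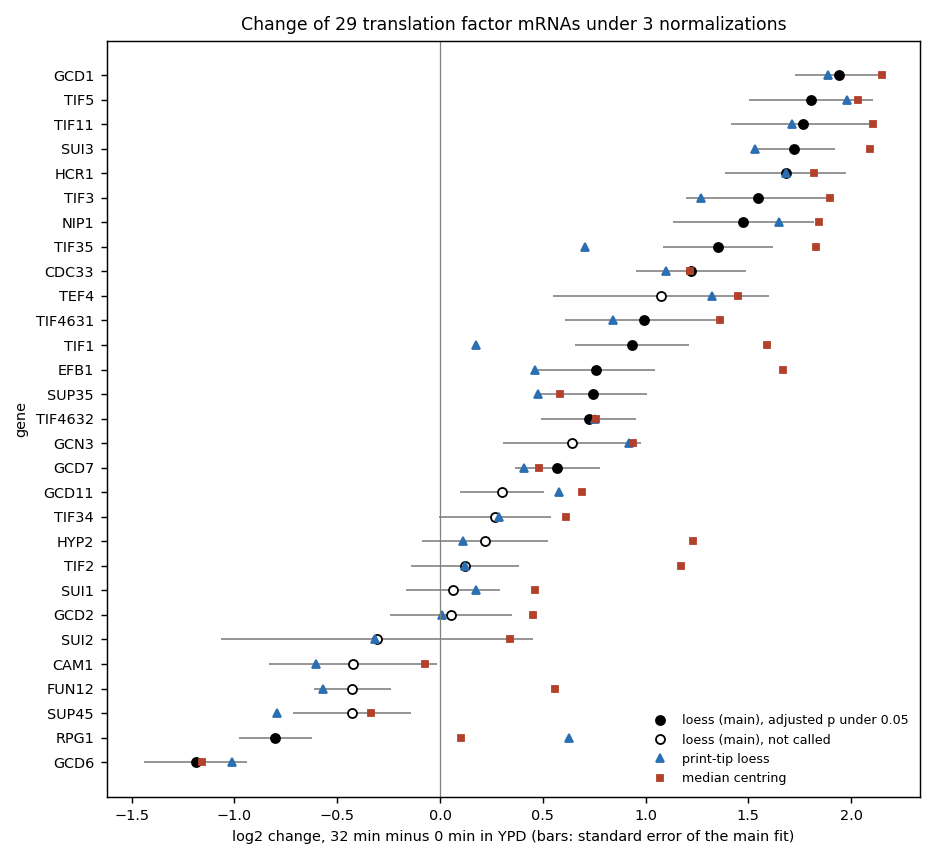
Change of the log2 ratio from 0 to 32 min in YPD for the 29 genes in the test, with points and bars for the estimate and its SE under global loess, and separate marks for print-tip loess and median centring. GCD1, TIF5, TIF11, SUI3 and HCR1 lie above 1.6 with global loess, and RPG1 lies at -0.80 with global loess but above 0 with both other scalings.

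Of the elongation factor genes, EFB1, YEF3 and TEF1 were called up at both 4 and 8 min in YPD, and CAM1, TEF2, EFT1 and EFT2 at neither time. TEF1 and TEF2 cannot be told apart on these arrays, and the rise of TEF1 at 8 min was not called with print-tip loess, so this gives no contrast between the 2 copies. EFB1 encodes the exchange factor eEF1B alpha, which reloads eEF1A with GTP. It had -0.14, 0.01 and 0.15 at 0 min, 0.81, 1.17 and 1.08 at 4 min, 1.23, 1.78 and 1.43 at 8 min, 0.68 and 0.85 on 2 arrays at 32 min, and -0.36, -0.02 and -0.28 at 128 min in YPD. The arrays of 4 and 8 min lay above all of 0 min, and the change was 1.02 (SE 0.25, adjusted p = 0.00415) at 4 min and 1.48 (SE 0.25, adjusted p = 3.46e-05) at 8 min, both called under all alternatives run. The change of 0.76 (SE 0.28, adjusted p = 0.0238) at 32 min was not called with print-tip loess or without replicate 1 of 0 min or replicate 2 or 3 of 32 min. In glucose EFB1 was at -0.35, -0.47 and 0.06 at 4 min, below all YPD arrays of 4 min, with a difference of YPD minus glucose of 1.28 (SE 0.25, adjusted p = 0.000661), and it reached 1.19, 0.81 and 0.92 at 8 min. EFB1 and TEF4 each overlap a small noncoding gene in the annotation, and the array does not separate the transcripts.

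TEF4 and CAM1 encode eEF1B gamma, the anchor of that exchange complex. TEF4 had 0.76, 1.53 and 1.76 at 128 min, against -0.20 and -0.21 on the 2 arrays of 0 min with a value in YPD, a change of 1.55 (SE 0.48, adjusted p = 0.00943). At 32 min it had 0.76 and 0.98 and was not called. Its call at 8 min rested on replicate 3 with 3.21, beside 0.35 and 0.51 on the other arrays, and without that array the change was 0.63 and not called. CAM1 had -0.57 and 0.18 at 32 min, against 0.14, 0.28 and 0.27 at 0 min, and was called down only at 16 min, with a change of -1.07 (SE 0.37, adjusted p = 0.0151).

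The most abundant elongation factors were among the genes with many flagged spots, and the values that follow hold every spot. YEF3 encodes eEF3, an ATPase particular to fungi that clears the exit site of the ribosome. In YPD it had -0.02, -0.29 and -0.26 at 0 min, 0.85, 1.32 and 1.17 at 4 min, 1.76, 2.18 and 2.11 at 8 min, 1.60, 2.34 and 2.26 at 32 min and 1.02, 2.34 and 1.98 at 128 min. Every array from 4 min on lay above all 0 min arrays, the lowest being replicate 3 of 96 min with 0.18. The change was 2.20 (SE 0.33, adjusted p = 3.03e-06) at 8 min and 2.25 (SE 0.33, adjusted p = 3.04e-07) at 32 min, where print-tip loess gave 1.30, also called. In glucose it had 2.56, 2.46 and 1.70 at 32 min, against -0.50 and -0.24 at 0 min, a change of 2.61 (SE 0.37, adjusted p = 2.75e-06) that was 1.59 and not called with print-tip loess. At 4 min, by contrast, the glucose arrays stood at -0.35, -0.22 and -0.09, with a difference of YPD minus glucose of 1.33 (SE 0.33, adjusted p = 0.00641) that was 0.85 and not called with print-tip loess.

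TEF1 and TEF2 both encode eEF1A, which brings the aminoacyl-tRNA, and their coding sequences cannot be told apart on these arrays. Cy5 was saturated on 18 spots of TEF1 and 41 of TEF2. Cy3 was saturated on 2 of 6 spots of each gene at YPD 0 min and on 2 of 6 at YPD 8 min, so the ratios of these times also hold saturated spots. TEF1 had 0.79, 0.71 and 0.14 at 8 min, against -0.59, -1.91 and -1.24 at 0 min in YPD, a change of 1.79 (SE 0.40, adjusted p = 0.001) that was 0.25 and not called with print-tip loess. TEF2 had 0.91, 0.13 and 0.20 at 0 min, 0.94, 1.20 and 1.02 at 8 min, -0.63, -0.34 and 0.01 at 32 min and -2.44, -2.24 and -1.94 at 128 min in YPD. Cy5 was saturated on all 6 spots of TEF2 at each of 32, 64 and 128 min in YPD, and on 1 of 6 at 0 min, so the TEF2 ratios at those later times are lower bounds and no change is given. At 32 min TEF1 stood at -0.92, -0.47 and 0.15 in YPD and was not called.

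EFT1 and EFT2, which encode the same protein, the translocase eEF2, were called at 1 YPD time each. Cross-hybridisation between the 2 copies was not tested, so their values cannot be taken as separate measurements. At 32 min in YPD EFT1 had -1.29, -1.13 and -0.43, against -0.62, -0.90 and -0.75 at 0 min, and EFT2 had -1.36, -0.95 and -0.33, against -0.39, -0.77 and -0.61. Neither was called at that time. EFT2 was called down at 16 min (-0.95, SE 0.32, adjusted p = 0.0105), not without replicate 2 of 16 min, and EFT1 up at 128 min (0.98, SE 0.32, adjusted p = 0.0103), a call lost with print-tip loess and without replicate 3 of 128 min.

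**Figure D4:**
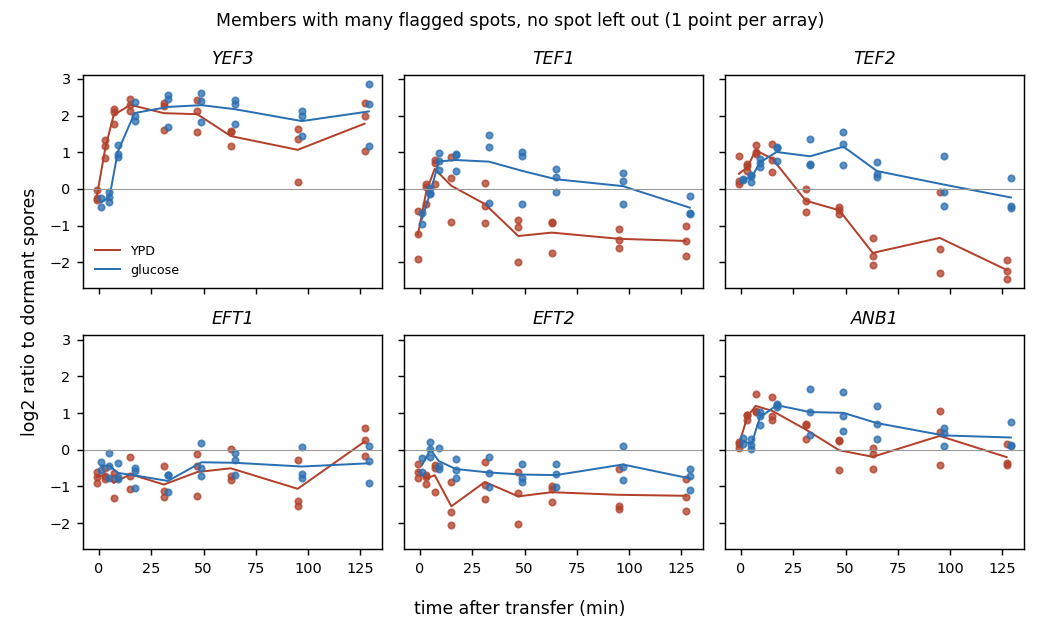
Log2 ratio to dormant spores of YEF3, TEF1, TEF2, EFT1, EFT2 and ANB1 with flagged spots kept, against time after transfer in min, 1 point per array, lines through the group means, YPD in red and glucose in blue. YEF3 stands above 0.8 on every YPD array from 4 to 64 min, and the YPD points of TEF2 at 32, 64 and 128 min, down to -2.44, are of saturated spots, from which no change can be read.

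HYP2 and ANB1 encode eIF5A, which helps the ribosome through difficult peptide bonds, and are the aerobic and the hypoxic copy, with closely similar sequences. HYP2 had -0.62, -0.85 and -0.39 at 0 min, 0.72, 0.73 and 0.88 at 4 min, 0.94, 0.65 and 0.72 at 8 min, -0.30, -0.82 and -0.08 at 32 min and -1.43, -1.50 and -0.92 at 128 min in YPD. The 4 and 8 min arrays lay above all of 0 min, and the change at 4 min was 1.40 (SE 0.31, adjusted p = 0.00116) with global loess but not called with print-tip loess, which at 8 min gave -0.13 in place of 1.39. ANB1, with no spot left out, had 1.03, 1.05 and 1.51 at 8 min, against 0.21, 0.04 and 0.15 at 0 min in YPD, a change of 1.06 (SE 0.29, adjusted p = 0.00726) that was also called with print-tip loess (1.17) and median centring (0.85). At 32 min ANB1 stood at 0.69, 0.29 and 0.67 in YPD and was not called.

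Of the release factors, SUP35 encodes the GTPase eRF3 and SUP45 encodes eRF1, which reads the stop codon. SUP35 had 0.80 and 0.74 on the 2 arrays of 32 min with a value, against 0.03, 0.04 and 0.01 at 0 min in YPD, a change of 0.75 (SE 0.26, adjusted p = 0.0184) that was not called with median centring or without replicate 1 or 3 of 32 min, and its dormant-spore signal was above background on 0 of 3 arrays of 32 min. SUP45 had -0.74 and -1.02 at 32 min, against -0.21, -0.57 and -0.57 at 0 min, and was not called at any time in either medium.

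**Figure D5:**
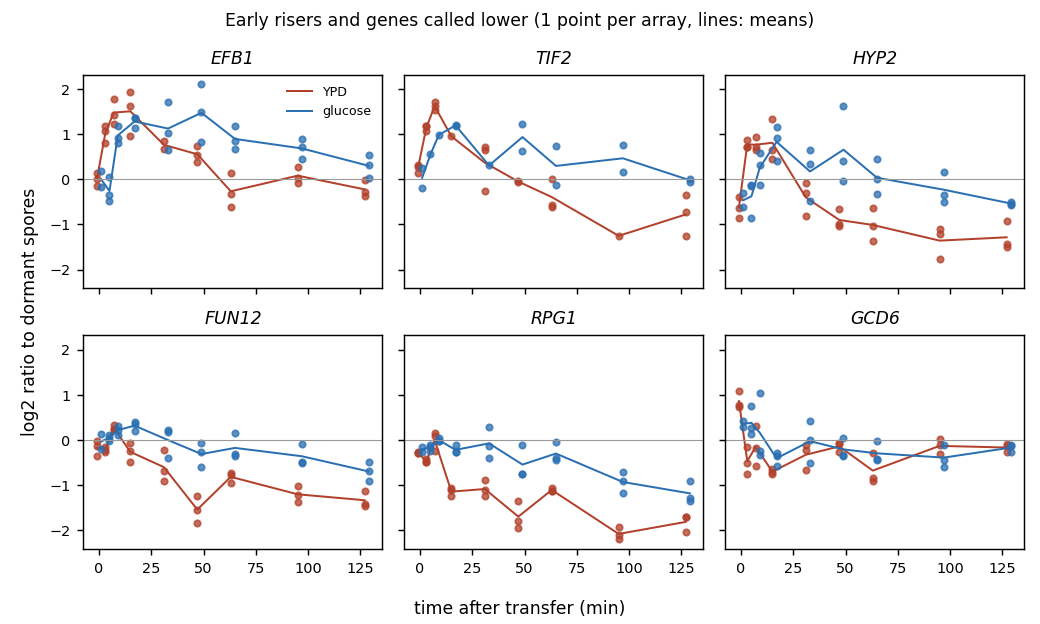
Log2 ratio to dormant spores of EFB1, TIF2, HYP2, FUN12, RPG1 and GCD6 against time after transfer in min, 1 point per array, lines through the group means, YPD in red and glucose in blue. EFB1, TIF2 and HYP2 are highest at 8 or 16 min in YPD, and the late falls of TIF2, HYP2, FUN12 and RPG1 seen here with global loess turned their sign with print-tip loess or median centring, while that of GCD6 did not.

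The time of the highest mean differed between members. In YPD 8 of the 29 were highest at 8 min, among them TIF1 and TIF2, 5 at 16 min, among them SUI3, EFB1 and HYP2, and 8 at 32 min, among them TIF5, NIP1, TIF35, CDC33 and TIF3. TIF11, GCD1 and TIF34 were highest at 64 min, TEF4 at 96 min and HCR1 at 128 min. Between 32 and 128 min in YPD 0 members rose and 11 fell (11.6% and 14.2% of all genes), a count that was 3 without replicate 3 of 32 min, 5 without replicate 1 of 128 min, 6 without replicate 2 of 32 min, 2 with print-tip loess and 7 with median centring. Of the 11, SUI3, TIF2 and EFB1 stood higher at 128 than at 32 min with print-tip loess, and TIF2, EFB1 and HYP2 with median centring. In glucose 0 rose and 3 fell between these times (5.51% and 4.67% of all genes), or 1 without replicate 1 of 32 min or replicate 2 of 128 min, and of the 3, FUN12, RPG1 and EFB1, the fall of EFB1 (-0.83) was 0.47 with median centring. Counted against dormant spores with no test, 13 members had a mean at least 2-fold up in 2 consecutive YPD times and 3 at least 2-fold down (16.5% and 16.5% of all genes), the 3 being FUN12, RPG1 and HYP2. In glucose 8 were up and 0 down by this count (8.69% and 8.82% of all genes).

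In glucose 12 of the 29 rose against 0 min at 1 or more times, 3 fell and 14 never changed by the test. For these pooled counts too, the share of all genes was not computed. At 4 min limma called 0 of all genes tested in either direction, and 0 of the 29 had an unadjusted p under 0.05. At 32 min 7 members rose and 0 fell (8.07% and 9.05% of all genes), TIF5, SUI3, GCD1, NIP1, HCR1, TIF4631 and EFB1, and at 128 min 7 rose and 2 fell (11.3% and 14.2%). At 16 min 7 rose and 0 fell (9.13% and 6.81%), at 48 min 8 and 0 (8.51% and 10.4%), at 64 min 8 and 0 (11.8% and 12.8%), and at 96 min 9 and 2 (11.4% and 13.8%). TIF5, SUI3 and GCD1 were called up at each of these times. The counts of rises rested on the 2 arrays of 0 min: at 32 min they were 4 without replicate 1 and 3 without replicate 2, and at 128 min 3 without either. With the quantification day as a fixed block, 6 of the 7 rises at 32 min and 4 of the 7 at 128 min could be fitted, and 0 of these remained called. Of the fitted rises 1 of 5 remained called at 16 min (EFB1), 0 of 5 at 48 min, 0 of 5 at 64 min and 1 of 6 at 96 min (HCR1). NIP1 had 1.18, 1.39 and 1.13 at 32 min, against -0.22 and -0.10 at 0 min in glucose, a change of 1.39 (SE 0.38, adjusted p = 0.00887). HCR1 had 0.68, 2.33 and 1.30 at 32 min, against -0.28 on the only 0 min array with a value.

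Of the 2 array layouts, the second held 0 of the 27 YPD arrays and 11 of the 26 glucose arrays, some at every glucose time. Medium and layout are thus partly mixed in every difference between media. Compared directly at the same time, 0 members differed between media at 0 min (0.0343% of all genes higher and 0% lower in YPD) and at 8 min (2.21% and 0.944%) in limma, with 0 and 6 members at an unadjusted p under 0.05. YPD and glucose differed in 5 members that were higher in YPD and 1 that was lower at 4 min (6.54% and 1.92% of all genes). These were SUI3, GCD1, TIF4632, EFB1 and HYP2, and GCD6. On the YPD arrays of 4 min the dormant-spore signal was above background on 0 of 3 for TIF4632 and 1 of 3 for GCD1, and the Cy5 signal of GCD6 on 0 of 3. At 32 min 5 were higher in YPD, TIF11, SUI3, GCD1, CDC33 and TIF4632, and 2 lower, RPG1 and FUN12 (9.47% and 13.9% of all genes). The dormant-spore signal of CDC33 was above background on 1 of 3 YPD arrays and 3 of 3 glucose arrays of 32 min. TIF11 had 0.998, 1.75 and 2.04 in YPD, against 0.55, 0.36 and 0.80 in glucose, a difference of 1.03 (SE 0.35, adjusted p = 0.03). The 5 higher calls were 2 without YPD replicate 2, and 3 without YPD replicate 3, glucose replicate 1 or glucose replicate 3. RPG1 differed by -1.01 (SE 0.18, adjusted p = 4.56e-05) and FUN12 by -0.60 (SE 0.19, adjusted p = 0.0184) at 32 min, values that were 0.18 and 0.65 with median centring. All YPD arrays of 32 min share a quantification day of their own, and with the day as a random block 0 members were higher and 1 lower in YPD.

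At 128 min 1 member was higher in YPD and 2 were lower (3% and 6.57% of all genes). GCD7 had 0.50, 0.80 and 0.68 in YPD, against -0.22, 0.24 and -0.14 in glucose, with no overlap and a difference of 0.70 (SE 0.21, adjusted p = 0.0219). This call was lost without YPD replicate 2 or 3 and without glucose replicate 1 or 3. The lower members were FUN12 (-0.64) and RPG1 (-0.63), which with median centring differed by 0.36 and 0.41. At 48 min the arrays gave 0 members higher and 4 lower in YPD (1.65% and 8.03% of all genes), FUN12, RPG1, EFB1 and HYP2, all of which stood higher in YPD with median centring. At 16 min GCN3, TIF34 and TIF4632 were higher and 2 members lower in YPD (8.81% and 10.9%), while at 64 min (6.49% and 13.6%) and at 96 min (5.99% and 10.4%) 1 member was higher, GCD1 both times, and 4 lower. The difference of GCD1 at 64 min was 1.25 (SE 0.21, adjusted p = 3.57e-05).

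Whether the change from 0 min itself differed between media was tested at 32 and 128 min. At 32 min the signed change was called higher in YPD than in glucose for GCD1 and lower for RPG1 (0.978% and 3.54% of all genes called in these directions). RPG1 changed by -0.80 in YPD and by 0.13 in glucose, and its difference had the opposite sign with median centring. At 128 min limma called 0 of the 29 in either direction (0.463% and 1.48% of all genes), with 2 at an unadjusted p under 0.05. Changes against 0 min in the 2 media share no arrays, while all arrays share the dormant-spore reference.

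Among genes that act beside these factors, the 31 tested regulators and recycling factors had 18 called up and 5 down at 32 min in YPD, when 22.2% of all genes were called up and 26.6% down. The highest rises were 3.11 for MRT4, a nucleolar factor of the large subunit, and 2.70 for DED1, a helicase of initiation. Of 16 genes for the modification of eIF5A and eEF2, 10 rose and 0 fell, among them LIA1 (2.64) and DYS1 (2.26), which make the hypusine of eIF5A. Of 8 mitochondrial translation factors 0 rose and 4 fell, the furthest AIM23 (-0.77) and FMT1 (-0.74). At 8 min in YPD, when 10.8% of all genes were called up, 34.5% of the translation factors in the test were called up, beside 42.4% of 59 nucleolar factors of rRNA processing, 16.7% of 18 cytosolic aminoacyl-tRNA synthetases and 3.51% of 114 ribosomal protein genes. At 32 min the shares were 51.7%, 84.7%, 77.8% and 56.1%. These lists were not tested against one another.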

How the data were processed

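Total RNA of each time point (Cy5) and of dormant spores (Cy3) was labelled with random hexamers and oligo(dT) and hybridised to spotted 2-colour arrays. Per the file headers, the authors quantified the images with ImaGene 6.0.1, and the deposited scanner files hold the spot intensity in each dye, neither background-subtracted nor normalized. The authors also deposited 1 table of normalized log2 ratios averaged over replicates, which was used only as an alternative for 2-fold counts.

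Mean spot intensities were background-corrected with limma's normexp method (offset 50). Log2 ratios were normalized within each array by global loess, spots with a poor or a manual flag were dropped, and the spots of a gene were averaged. Of 6218 genes on both layouts, 392 lacked a value in some group and 5826 were tested in 1 limma 3.58.1 fit over 18 groups (R 4.3.3, Benjamini-Hochberg adjustment within each comparison, threshold 0.05). Spots were above background where the signal exceeded it by 2 SD. The number of arrays and the signal over background limit the precision. The fit was tested on simulated data.

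The members, related lists and tests were chosen with earlier results of these data known. Values per array are given for the members highest and lowest at 32 min in YPD in each factor, for paralogue pairs, for the largest differences between media and for members called early or called down. The values of the 7 members fitted with no spot left out, and the print-tip loess and median centring of every member, were added after the data were seen. Alternatives changed the background correction, normalization, spot measure, flags, dim-spot filter, baseline, arrays in the fit and blocks for layout, quantification day (statmod 1.5.0) and replicate number. Promoter and protein sequences were not analysed here.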

Additional observations from a re-analysis of the deposited data

Results flagged for a closer look

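The change from 0 to 32 min differed between media for 2 of the 29 members in limma's test of the difference. For GCD1, the eIF2B gamma subunit, the YPD change exceeded the glucose change by 1.08 (SE 0.32, adjusted p = 0.0418). Its change was 1.94 in YPD and 0.86 in glucose, and all 3 YPD arrays of 32 min stood above all 3 glucose arrays. The difference remained called under 10 of the 24 alternatives run. It was lost with the quantification day as a random block (YPD 32 min has a day of its own), the median of spot pixels, no spot left out for quality, only spots above background, scaling between arrays and the groups compared only, and without YPD 0 min replicate 2 or 3, YPD 32 min replicate 2 or 3, either array of glucose 0 min, or glucose 32 min replicate 1 or 2. The Cy5 signal of GCD1 was not well above background at YPD 0 min.

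For RPG1, the eIF3 a subunit, the difference of the YPD from the glucose change was -0.93 (SE 0.27, adjusted p = 0.0321), with arrays of 32 min between -1.24 and -0.89 in YPD and between -0.39 and 0.29 in glucose. With median centring the difference was 0.27, and it remained called under 10 of the 25 alternatives run. It was lost with the day as a random block, plain background subtraction, print-tip loess, no spot left out for quality, scaling between arrays and the groups compared only, with any 1 array of YPD or glucose 0 min left out, and without YPD 32 min replicate 1 or 2 or glucose 32 min replicate 1. The part of probe brightness in either difference was not tested.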

How the results depend on the processing

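Of 586 counts of members recomputed under alternatives, 469 stayed within 1.5 times the count reported, and of 1958 changes of single members, 1553 kept direction and call, 384 kept direction but lost the call and 21 turned. Why they moved was not tested. With print-tip loess the turned changes were, for 128 against 32 min in YPD, EFB1 0.36, SUI3 0.55 and TIF2 0.53, HYP2 -0.13 at 8 min, RPG1 0.63 at 32 min and 0.49 at 128 min, TIF2 0.66 at 128 min, RPG1 0.37 at 128 min in glucose and 0.093 between media at 128 min. With median centring they were EFB1 0.31, HYP2 0.18 and TIF2 0.005 for 128 against 32 min in YPD, EFB1 0.47 for that change in glucose, FUN12 0.25, TIF2 1.18 at 128 min and RPG1 0.10 at 32 min in YPD, and between media FUN12 0.65 and RPG1 0.18 at 32 min, FUN12 0.36 and RPG1 0.41 at 128 min and RPG1 0.27 for the difference of changes at 32 min.

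Counts of members moved as follows. Print-tip loess gave 0 members 2-fold down in YPD, 2 falls at 128 min, 2 falls and 1 rise from 32 to 128 min, 1 fall for this in glucose, and between media 2 higher at 32 min and 1 lower at 128 min. Median centring gave 0 members 2-fold down in YPD, 1 fall at 32 min, 1 at 128 min, 7 from 32 to 128 min, 1 fall at 128 min and 0 from 32 to 128 min in glucose, and between media 11 higher and 0 lower at 32 min and 0 and 0 at 128 min. Scaling between arrays gave 3 falls at 4 min, 9 rises and 1 fall at 32 min, 3 falls from 32 to 128 min, and between media 0 higher and 1 lower at 32 min and 0 and 0 at 128 min. The median of spot pixels gave 1 member 2-fold down in YPD, 7 falls from 32 to 128 min, 1 rise for this in glucose, and between media 2 higher and 1 lower at 32 min and 1 lower at 128 min. Plain background subtraction gave 0 falls at 8 min, 6 from 32 to 128 min, 2 higher between media at 32 min and 1 lower at 128 min. No background subtraction gave 4 members 2-fold up in glucose, 4 falls at 32 min in YPD, and 3 and 2 higher between media at 32 and 128 min. With no spot left out, 6 members were 2-fold down in YPD, 1 rose from 32 to 128 min, 6 fell for this in glucose and 1 was lower between media at 128 min. With empty spots left out too, 0 fell at 4 min, 6 rose and 0 fell at 8 min, 1 rose from 32 to 128 min in glucose, and 2 and 0 were higher between media at 32 and 128 min.

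Fitting the groups compared only gave 10 rises and 2 falls at 4 min, 2 rises at 32 min and 1 fall at 128 min in glucose, 0 falls from 32 to 128 min in glucose, and between media 2 higher and 1 lower at 32 min and 0 and 0 at 128 min. Quantification day as a fixed block, in which 13 of the 29 members could not be fitted, gave 6 rises at 8 min, 0 rises and 0 falls at 128 min in YPD, 0 rises at 32 min, 0 rises and 0 falls at 128 min and 0 falls from 32 to 128 min in glucose, and 0 and 0 between media at 128 min. As a random block it gave 3 rises at 4 min, 9 at 32 min, 6 at 128 min, 2 falls from 32 to 128 min, 1 fall at 128 min in glucose, and 0 higher and 1 lower between media at 32 min. Arrays of 1 day only gave 0 falls at 8 min and 0 and 0 between media at 128 min. The layout as a block gave 4 lower between media at 128 min. Ratios to dormant spores tested against 0 gave 5 YPD falls at 4 min, 0 at 8 min and 4 after 32 min, and in glucose 11 rises and 2 falls at 32 min and 14 and 5 at 128 min. The authors' deposited table gave 6 members 2-fold down in YPD and 4 up in glucose.

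Replicate numbers are not shown to pair the samples: same-numbered arrays of different YPD times had a median correlation of deviations of 0.035, against -0.013 for other arrays, and 0.102 against -0.078 in glucose. The replicate block left 15 rises at 32 min and 10 at 8 min in YPD and gave 8 at 32 min in glucose. It moved no count by over 1.5 times. With the numbers in the image names, chosen after seeing the data, the medians were 0.114 against -0.044 in YPD and 0.188 against -0.12 in glucose, and with these as a replicate block 3 members were higher between media at 32 min.

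Leaving out 1 array gave 4 to 5 rises and 1 fall at 4 min, 7 to 9 rises and 0 to 1 falls at 8 min (0 without replicate 1 of 8 min), 11 to 14 rises and 2 to 3 falls at 32 min, 8 to 11 rises and 4 to 5 falls at 128 min, and 3 to 10 falls from 32 to 128 min in YPD. In glucose it gave 3 to 8 rises at 32 min, 3 to 8 rises and 1 to 2 falls at 128 min (1 without replicate 2 of 0 or 128 min), and 0 to 1 rises (1 without replicate 3 of 128 min) and 1 to 4 falls from 32 to 128 min. Between media it gave 2 to 4 higher and 1 to 2 lower at 32 min (1 without YPD replicate 1 or 2 or glucose replicate 1), and 0 to 1 higher and 0 to 2 lower at 128 min (0 lower without replicate 3 of either medium, 1 without replicate 1 of either). Members 2-fold up and down were 11 to 14 and 3 to 4 in YPD and 7 to 9 and 0 to 1 in glucose (1 without replicate 3 of 96 min).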
